A study of Mus musculus with 8 samples.

Results

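The transcripts described here are 8 genes that T cells switch on within hours of an antigen receptor signal: the orphan nuclear receptors Nr4a1, Nr4a2 and Nr4a3, the zinc finger factors Egr1, Egr2 and Egr3, the surface lectin Cd69 and the growth regulator Myc. They were taken by their symbols, and all 8 were found among the 22609 genes measured. The RNA came from naive CD8 T cells, which have not yet met antigen, isolated directly from the spleens of C57BL/6 mice at 3 months of age. There were 4 libraries from Brca1 heterozygous (Het) mice, called Het 31, 53, 56 and 139 by the number in their titles, and 4 from Brca1 wild type (WT) mice, called WT 45, 54, 57 and 65. Brca1 acts in the repair of DNA double strand breaks. How its allele was altered, and whether each library came from a separate mouse, is not given in the labels, so a p-value here speaks only of spread among libraries, which may be technical.

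When the antigen receptor is engaged, calcium and MAP kinase signals reach factors already present in the cell, and these switch on immediate early genes without new protein synthesis. EGR factors bind GC-rich sites and NR4A factors bind as monomers or dimers without a known natural ligand. Egr2, Egr3 and the NR4A receptors are also known to restrain T cells that receive incomplete or chronic signals. CD69 holds cells in lymphoid tissue by taking the egress receptor S1PR1 off the surface, and Myc drives the growth that precedes division. In resting cells these genes also respond to weak self signals and to handling of the tissue.

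The proximal promoters of the NR4A genes and Egr2 are shown because these genes varied between libraries in different ways, and that of Hsph1, a heat shock chaperone, because its level was used to order the libraries. The sequences are those of RefSeq on GRCm38.p6, from 250 bases before to 50 after a transcript start, and 4 of the 8 genes (Nr4a1, Nr4a2, Nr4a3 and Egr2) matched. Egr2 has 5 listed starts and Hsph1 has 2, and the window with the most motif matches is shown. Capitals mark matches on either strand to TGACG, the core of the cAMP response element, to GCGGGGGCG, a site of EGR factors, to the CArG box bound by serum response factor, to the E box CACGTG, and to the heat shock motifs TTCNNGAA and GAANNTTC.
Nr4a1 promoter, chr15:101266596-101266895, plus strand: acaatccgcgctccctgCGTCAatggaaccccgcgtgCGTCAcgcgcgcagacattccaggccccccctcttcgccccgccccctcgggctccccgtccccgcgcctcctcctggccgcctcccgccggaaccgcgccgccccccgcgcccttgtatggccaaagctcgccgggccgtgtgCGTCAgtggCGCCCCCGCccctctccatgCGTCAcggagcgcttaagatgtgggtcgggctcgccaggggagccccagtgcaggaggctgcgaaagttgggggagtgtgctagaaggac
Nr4a2 promoter, chr2:57123954-57124253, minus strand: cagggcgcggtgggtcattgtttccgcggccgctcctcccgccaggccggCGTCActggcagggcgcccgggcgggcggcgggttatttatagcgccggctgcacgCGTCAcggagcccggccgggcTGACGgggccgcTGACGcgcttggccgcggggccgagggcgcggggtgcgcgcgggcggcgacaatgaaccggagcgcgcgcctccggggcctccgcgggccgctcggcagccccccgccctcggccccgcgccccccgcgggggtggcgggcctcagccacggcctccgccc
Nr4a3 promoter, chr4:48045055-48045354, plus strand: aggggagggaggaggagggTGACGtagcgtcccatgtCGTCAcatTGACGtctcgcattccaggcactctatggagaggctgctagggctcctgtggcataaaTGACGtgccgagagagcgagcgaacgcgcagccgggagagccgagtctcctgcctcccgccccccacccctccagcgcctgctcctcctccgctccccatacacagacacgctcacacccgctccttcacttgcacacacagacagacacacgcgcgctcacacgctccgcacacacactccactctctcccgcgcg
Egr2 promoter, chr10:67537619-67537918, plus strand: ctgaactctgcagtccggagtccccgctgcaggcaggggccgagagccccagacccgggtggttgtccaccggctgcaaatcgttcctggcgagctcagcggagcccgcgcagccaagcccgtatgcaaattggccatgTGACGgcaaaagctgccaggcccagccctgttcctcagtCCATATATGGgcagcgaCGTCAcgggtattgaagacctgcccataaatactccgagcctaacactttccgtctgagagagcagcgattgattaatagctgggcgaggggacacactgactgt
Hsph1 promoter, chr5:149636287-149636586, minus strand: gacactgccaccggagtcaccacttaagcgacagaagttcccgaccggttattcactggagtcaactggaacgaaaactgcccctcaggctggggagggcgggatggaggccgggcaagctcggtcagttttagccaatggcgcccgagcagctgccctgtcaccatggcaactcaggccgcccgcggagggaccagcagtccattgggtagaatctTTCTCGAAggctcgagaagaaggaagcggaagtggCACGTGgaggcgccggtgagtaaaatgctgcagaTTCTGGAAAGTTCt

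Each of the 3 NR4A windows held 4 copies of TGACG or its complement CGTCA, and the Egr2 window held 2. Of all 32851 promoter windows of 300 bases, 20.8% held at least 1 such core. In the Egr2 window a CArG box, CCATATATGG, lay between its TGACG cores, at bases 179 to 188 counted from 1 at the 5′ end, and 1.63% of all windows held a CArG box. In Nr4a1 an EGR site on the other strand lay at bases 191 to 199, between CGTCA copies, and GCGGGGGCG was found in 2.91% of windows. The Hsph1 window held TTCNNGAA 2 times and GAANNTTC 1 time, the single GAANNTTC overlapping a TTCNNGAA, against 8.52% and 7.86% of windows with a copy. No heat shock motif was matched in the NR4A and Egr2 windows shown, which says only that these letters are not there. The Hsph1 window also held the E box CACGTG, found in 7.15% of windows. Neither the full element TGACGTCA (1.79% of windows), nor the other EGR form GCGTGGGCG (0.612%), nor the NR4A monomer site AAAGGTCA (1.51%) was matched in these 5 windows. The Egr2 and Hsph1 windows were picked for the most matches to these motifs, which the windows behind the shares were not. The shares are also not matched for GC content, which was 64.7% to 81.7% in the NR4A windows. They give a background only, and enrichment was not tested.

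The values are the authors' normalized read counts per gene, which followed 1 shared distribution in all 8 libraries at ranks averaging 100 or more. Every total was therefore near 27489670 and says nothing about depth. The number of different values up to 100, a rough guide to the reads behind a value of 100, was 74 to 121 in Het and 106 to 128 in WT libraries, and the lowest value of the 8 genes was 53.7. Genes above 0 numbered 13863 to 14656 in Het and 15358 to 15569 in WT libraries. The lowest value above 0 was 0.9 to 1.9 in Het and 0.2 to 0.3 in WT libraries, so the low end was not shared. Brca1 was at 153 ± 22.7 in Het and 183 ± 29.3 in WT (SD, n = 4 each, limma adjusted p = 0.742), a value that cannot show whether reads of the altered allele are still counted. The CD8 T cell markers summed to 194610 to 242751 in Het and 197922 to 223467 in WT libraries. In such bulk samples, fewer cells expressing a gene and less RNA per cell cannot be told apart.

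Levels were compared between genes only per kilobase of the longest GENCODE M21 transcript, whose lengths may differ from the models the authors counted on. On that scale Myc was highest, with 2690 to 4470 normalized reads per kilobase in Het and 3120 to 3870 in WT libraries. Cd69 followed at 995 to 1910 per kilobase in Het and 890 to 2270 in WT, overlapping Nr4a1 at 1010 to 1070 in Het and 903 to 1440 in WT. Next came Egr1, at 417 to 614 per kilobase in Het and 500 to 672 in WT. Below it Egr2 had 121 to 199 in Het and 147 to 188 in WT, and Egr3 71.1 to 148 in Het and 104 to 166 in WT, so the ranges of Egr2 and Egr3 overlapped. Nr4a2 (22.1 to 58.8 per kilobase in Het, 15.1 to 68.1 in WT) and Nr4a3 (10.3 to 68.0 in Het, 34.1 to 58.5 in WT) were lowest and overlapped each other. Over all 8 libraries, Myc did not overlap Cd69, Nr4a1 did not overlap Egr1, Egr1 did not overlap Egr2, and Egr3 did not overlap Nr4a2.

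None of the 8 genes passed the test between Het and WT. By limma with Benjamini-Hochberg adjustment over the 12048 tested genes, 0 of 8 passed the threshold of 0.05, against 0.515% of all tested genes (62, all of them falling in Het). That split depended on the treatment of the data: with GC and length trends removed 93 genes were called, 34 higher and 59 lower in Het, and without the variance trend 85, 10 higher and 75 lower. Only Egr3, 1 of 8, had an unadjusted p under 0.05, against 8.19% of all tested genes. The genotypes overlapped in each of the 8, against 5.0% of tested genes without overlap. All 8 estimated log2 differences (Het minus WT) lay below 0, with a median of -0.12, where the median over all tested genes was 0.01. Their signs were not stable: those of Nr4a1, Nr4a2, Nr4a3, Egr1, Egr2, Cd69 and Myc turned under at least 1 alternative, and Egr3 alone stayed below 0 in all 20.

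**Figure D1:**
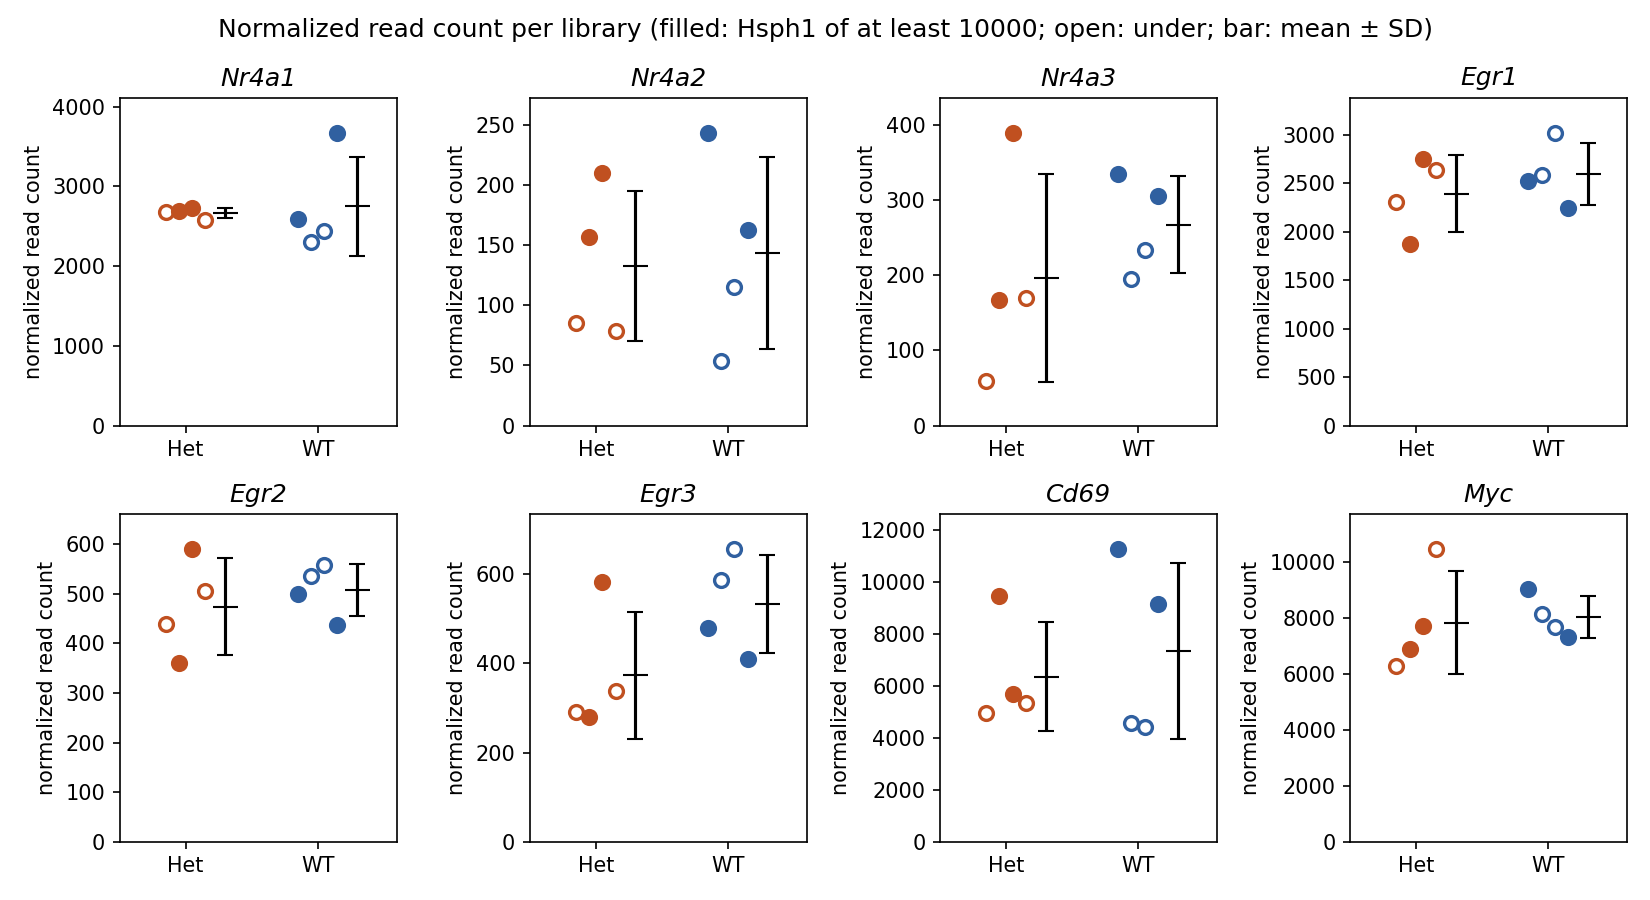
Normalized read count of each gene (vertical axis, from 0) in 4 Het and 4 WT libraries; each point is a library, filled where Hsph1 was at least 10000 and open where it was under, and bars give the mean ± SD. The genotypes overlap in every panel, and in the panels of Nr4a2 and Cd69 every filled point lies above every open point.

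Among the orphan receptors, Nr4a1 (Nur77) is widely used as a reporter of antigen receptor signal strength. Nr4a1 had normalized read counts of 2676.4, 2695.1, 2727.2 and 2578.2 in Het 31, 53, 56 and 139, against 2588.8, 2305.4, 2434.5 and 3666.8 in WT 45, 54, 57 and 65. The Het libraries lay close together, and WT 65 stood above all others. The means were 2669 ± 64.2 in Het and 2749 ± 623 in WT (SD, n = 4 each), a log2 difference of -0.02 (95% interval -0.31 to 0.28, SE 0.13, adjusted p = 0.974 by limma, and p = 0.971 by an exact permutation test).

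Nr4a2 (Nurr1) had 85.3, 156.3, 209.8 and 79.0 in Het 31, 53, 56 and 139, against 243.0, 53.7, 115.0 and 162.2 in WT 45, 54, 57 and 65. The Het libraries lay within the range of the WT libraries, which held both the highest and the lowest value. The log2 difference was -0.04 (95% interval -1.06 to 0.98, SE 0.46, adjusted p = 0.984 by limma, and p = 0.8 by an exact permutation test), an interval that holds differences of about 2-fold in either direction.

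Nr4a3 (NOR1) had 58.8, 167.2, 388.9 and 169.6 in Het 31, 53, 56 and 139, against 334.9, 195.2, 233.8 and 305.7 in WT 45, 54, 57 and 65. Het 56 was the highest of all libraries, while the other 3 Het libraries lay below every WT library. The means were 196 ± 139 in Het and 267 ± 64.2 in WT (SD, n = 4 each), with a log2 difference of -0.71 (95% interval -1.72 to 0.31, SE 0.46, adjusted p = 0.690 by limma, and p = 0.400 by an exact permutation test). The difference was -1.13 without Het 56 (unadjusted p = 0.0132 and adjusted p = 0.225 by limma), -0.23 without Het 31, and 0.054 with log2 Hsph1 as a covariate, and passed in none of the 20 alternatives. Nr4a3 spanned 6.61-fold over the 8 libraries and Nr4a2 4.53-fold, against 1.59-fold for Nr4a1. The spread within genotypes of Nr4a2 and Nr4a3 was larger than that of 97.2% and 97.3% of tested genes with a mean of at least 50, and that of Nr4a1 than 53.8%.

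Egr1 (Krox24, Zif268) is the earliest of the EGR genes to be induced in many cell types. It had 2303.9, 1868.8, 2751.8 and 2632.2 in Het 31, 53, 56 and 139, against 2518.7, 2579.8, 3014.6 and 2242.3 in WT 45, 54, 57 and 65. The genotypes overlapped over most of their range, with a log2 difference of -0.12 (95% interval -0.42 to 0.18, SE 0.14, adjusted p = 0.802 by limma, and p = 0.486 by an exact permutation test). Egr2 (Krox20), needed with Egr3 for T cell restraint, had 437.9, 359.9, 589.2 and 505.9 in Het 31, 53, 56 and 139, against 499.9, 535.5, 557.6 and 436.2 in WT 45, 54, 57 and 65. Het libraries held both its highest and its lowest value, and the log2 difference was -0.12 (95% interval -0.48 to 0.25, SE 0.17, adjusted p = 0.844 by limma, and p = 0.629 by an exact permutation test).

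Egr3 was the gene of the 8 with the smallest p. It had 291.5, 280.2, 582.5 and 337.5 in Het 31, 53, 56 and 139, against 478.0, 585.5, 654.6 and 409.9 in WT 45, 54, 57 and 65. Het 31, 53 and 139 lay below every WT library, and Het 56 lay among them. The means were 373 ± 142 in Het and 532 ± 109 in WT (SD, n = 4 each), a log2 difference of -0.55 (95% interval -1.09 to -0.02, SE 0.24, unadjusted p = 0.0427 and adjusted p = 0.594 by limma, and p = 0.114 by an exact permutation test). Without Het 56 the difference was -0.79, with an unadjusted limma p of 0.00160 and an adjusted p of 0.107, the lowest among the 20 alternatives, whose adjusted p ranged up to 0.9997. The call was the same in each of them.

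**Figure D2:**
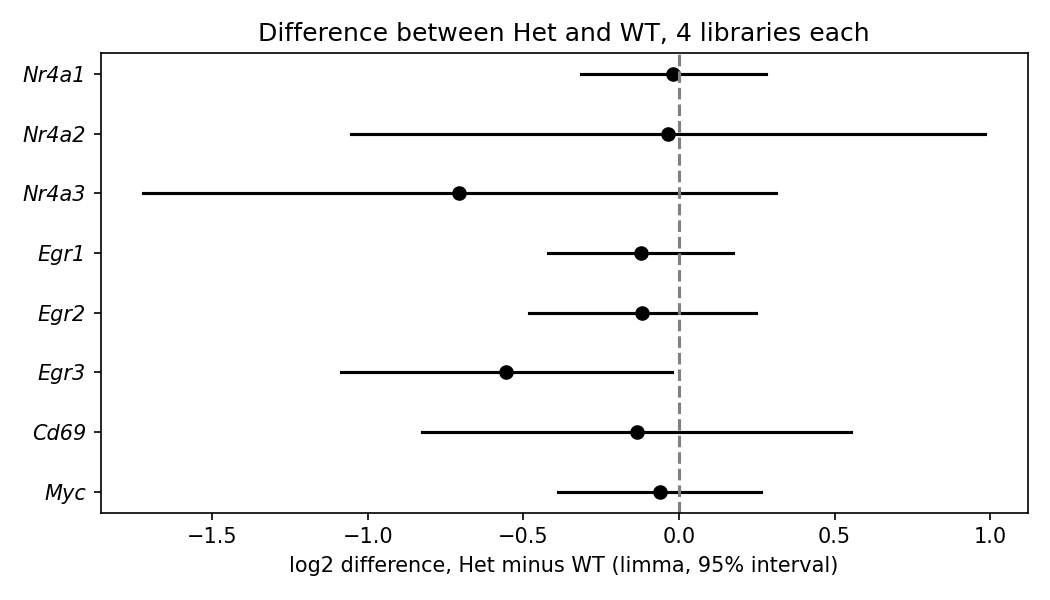
Log2 difference of each gene, Het minus WT, from limma (horizontal axis; points are estimates and lines 95% intervals, 4 libraries a genotype). All points lie left of 0, the Egr3 interval ends just below 0 at -0.02, and the intervals of Nr4a2 and Nr4a3 are the widest.

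Cd69 had 4943.2, 9474.9, 5693.3 and 5348.7 in Het 31, 53, 56 and 139, against 11259.1, 4568.5, 4422.9 and 9140.3 in WT 45, 54, 57 and 65. Het 53, WT 45 and WT 65 stood above the other 5 libraries, and the genotypes overlapped over most of their range. The means were 6365 ± 2096 in Het and 7348 ± 3405 in WT (SD, n = 4 each), a log2 difference of -0.14 (95% interval -0.83 to 0.55, SE 0.31, adjusted p = 0.910 by limma, and p = 0.743 by an exact permutation test). Myc had 6282.9, 6881.0, 7711.6 and 10442.8 in Het 31, 53, 56 and 139, against 9045.5, 8144.8, 7673.6 and 7305.3 in WT 45, 54, 57 and 65. Het libraries held both its lowest and its highest value, and the log2 difference was -0.06 (95% interval -0.39 to 0.26, SE 0.15, adjusted p = 0.914 by limma, and p = 0.886 by an exact permutation test).

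The libraries were next described by their level of Hsph1, the HSP110 chaperone, which heat and other protein stress induce. Hsph1 was at 2543.9, 10522.7, 14033.5 and 3553.2 in Het 31, 53, 56 and 139, and at 21019.9, 8557.6, 8421.6 and 17300.9 in WT 45, 54, 57 and 65. Het 53 and 56 and WT 45 and 65 were thus at 10000 or more, and Het 31 and 139 and WT 54 and 57 under it, with Het 53 just above the limit and WT 54 just below. This side was read from the data and is in no label, so the values on each side are given without a test. Of the other 17 tested heat shock genes, 7 were higher in each of these 4 libraries than in each of the rest, against 7.52% of all tested genes. Hsph1 itself separates them because it set the side.

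Nr4a2 and Cd69 separated the libraries by Hsph1 side without overlap, and the other 6 genes did not. Nr4a2 was at 156.3 to 243.0 where Hsph1 was at least 10000 and at 53.7 to 115.0 where it was under. Cd69 was at 5693.3 to 11259.1 where Hsph1 was at least 10000, though Het 56, at the low end, was close to the 4422.9 to 5348.7 of the others. Of all tested genes, 14.0% separated the sides in either direction. Nr4a3 was at 167.2 to 388.9 on the high side and 58.8 to 233.8 on the low side, overlapping through Het 53. Nr4a1 (2588.8 to 3666.8 and 2305.4 to 2676.4), Egr1 (1868.8 to 2751.8 and 2303.9 to 3014.6), Egr2, Egr3 and Myc overlapped as well.

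Each side held 2 libraries of each genotype, so the genotypes could be set side by side within it. Hsph1 itself was not matched there. On the low side it was at 2543.9 and 3553.2 in Het against 8557.6 and 8421.6 in WT, a log2 difference of -1.50. On the high side it was at 10522.7 and 14033.5 in Het against 21019.9 and 17300.9 in WT, a log2 difference of -0.65. Differences within a side are therefore not differences at an equal Hsph1 level. For Egr3, the low side had 291.5 and 337.5 in Het 31 and 139, against 585.5 and 654.6 in WT 54 and 57, a log2 difference of -0.98. On the high side Egr3 had 280.2 and 582.5 in Het 53 and 56, against 478.0 and 409.9 in WT 45 and 65, a log2 difference of -0.13. Nr4a3 differed by -1.09 on the low side and by -0.33 on the high side, and Cd69 by 0.19 and -0.47. For Nr4a1, Nr4a2, Egr1, Egr2 and Myc the log2 differences lay between -0.21 and 0.15 on both sides. With 2 libraries a group these are values without a test, and the difference between the sides was not tested.

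**Figure D3:**
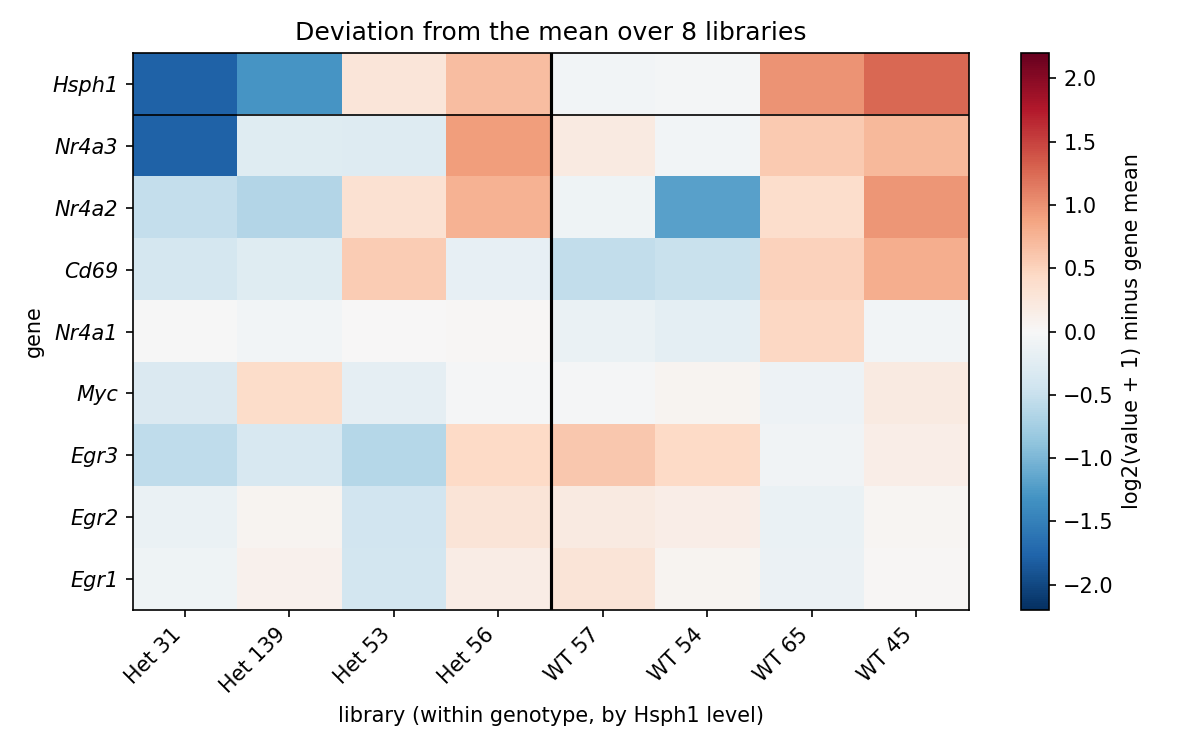
Deviation of log2(value + 1) from each gene's mean over the 8 libraries (colour, red higher and blue lower) for Hsph1 and the 8 genes (rows); the 4 Het libraries are left of the line and the 4 WT libraries right of it, each ordered by Hsph1. Nr4a2 and Cd69 are higher in each library with Hsph1 of at least 10000 than in each other library, though Cd69 in Het 56 and Nr4a3 in Het 53 lie below their own means. In each EGR row Het 53 is lowest.

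The order of the libraries was not the same for all 8 genes. Of the 28 pairs among them, 18 had a positive and 10 a negative Pearson correlation of log2(value + 1) over the 8 libraries. These and the 8 relations with Hsph1 made 36 relations, computed after the values had been seen, and 2 passed an exact permutation test (two-sided, over 40320 pairings) after Benjamini-Hochberg adjustment over the 36. None of the 10 negative pairs was among them (lowest adjusted p = 0.415 by that test, for Egr1 and Cd69). With 8 libraries the signs cannot show whether the genes share a programme.

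Egr1 and Egr2 went together, with r = 0.95 and rho = 0.95 over 8 libraries (exact permutation p = 0.000670 and 0.00114, adjusted p = 0.0241 and 0.0411). Without the 2 libraries farthest from the median of Egr2, r was 0.93, and with the genotype means removed it was 0.95. Egr3 followed both, with r = 0.79 to Egr1 and r = 0.84 to Egr2, though these missed the threshold (rho = 0.76 and 0.81, exact permutation p = 0.0148 and 0.00754 for r and 0.0368 and 0.0218 for rho, adjusted p for r = 0.133 and 0.0905, n = 8) and stood at 0.60 and 0.68 without the 2 farthest libraries. Het 53 was the lowest library for each of the 3 EGR genes.

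Transcripts rich in GC moved with this order: with the tested genes cut into 4 equal groups by transcript GC content, the median log2 deviation of the group richest in GC, less that of the poorest, was -0.01, -0.26, 0.00 and 0.11 in Het 31, 53, 56 and 139, and -0.06, 0.18, 0.18 and -0.15 in WT 45, 54, 57 and 65. Egr1, at 57.3% GC, lay at the 88.8th percentile of the tested genes with a transcript sequence, within the richest group. Egr2 and Egr3, at 51.4% and 51.3%, lay at the 59.5th and 59.0th percentiles, outside it. Nr4a1, at 57.0% GC and the 87.2nd percentile, did not share the order of the EGR genes (r = -0.42, -0.40 and -0.29 to Egr1, Egr2 and Egr3). Myc, at 53.3% and the 69.3rd percentile, had r = 0.46, 0.47 and 0.24 to these 3 genes. None of these 6 relations passed (exact permutation p between 0.242 and 0.567, adjusted p between 0.549 and 0.729, n = 8). Cd69 was the poorest in GC of the 8 genes, at 35.9% and the 0.496th percentile. It was highest in WT 45, Het 53 and WT 65, where the GC measure was -0.06, -0.26 and -0.15. Its lowest values were in WT 54 and 57, where the measure was 0.18, while Het 31, at -0.01, also had a low Cd69 value. The part of the GC trend in Cd69 was not tested. With the trends on GC content and length removed from each library, the correlation of Egr1 and Egr2 was 0.70 (exact permutation p = 0.0526, n = 8, adjusted p = 0.322), so the call ended there. It also ended without Het 31, Het 53, WT 45, WT 54 or WT 65, with r between 0.89 and 0.96 and adjusted p between 0.05 and 0.179 over the 7 libraries left.

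Nr4a3 went with Hsph1, with r = 0.87 and rho = 0.76 over 8 libraries (exact permutation p = 0.00226 and 0.0368, adjusted p = 0.0406 and 0.236). Without the 2 libraries farthest from the median Hsph1, r was 0.73, and with the genotype means removed it was 0.84. The call ended without any 1 of the 8 libraries, with r between 0.76 and 0.94 and adjusted p between 0.0714 and 0.336 over the 7 left. Nr4a2 and Hsph1 had r = 0.72 and rho = 0.81 (exact permutation p = 0.0434 and 0.0218, n = 8, adjusted p = 0.286 and 0.236), and Cd69 and Hsph1 r = 0.65 and rho = 0.74 (exact permutation p = 0.0838 and 0.0458, n = 8, adjusted p = 0.377 and 0.236), neither past the threshold. They stood at 0.79 and 0.78 without the 2 farthest libraries.

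Relations of Nr4a1, the EGR genes and Myc with Hsph1 did not pass either, with r between -0.04 and 0.47 and adjusted p between 0.549 and 0.954 by the exact permutation test (n = 8). For Nr4a1 r was 0.33. With 8 libraries this does not show that a relation is absent. Long transcripts moved with the Hsph1 side. The median log2 deviation of the longest of 4 equal groups by transcript length, less that of the shortest, was 0.09 to 0.21 in the 4 libraries with Hsph1 of at least 10000 and -0.35 to 0.03 in the other 4. In transcript length Hsph1 lay at the 73.9th percentile, and Nr4a3, Cd69 and Nr4a2 at the 83.3rd, 76.3rd and 53.1st. Egr1, Egr3, Egr2, Nr4a1 and Myc lay at the 69.7th, 60.0th, 40.8th, 31.6th and 27.5th. With the GC and length trends removed, Nr4a3 and Hsph1 had r = 0.84 (exact permutation p = 0.00501, n = 8, adjusted p = 0.0902), past the threshold no longer. The part of these trends, and of handling of the tissue, in the order of these genes was not tested.

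**Figure D4:**
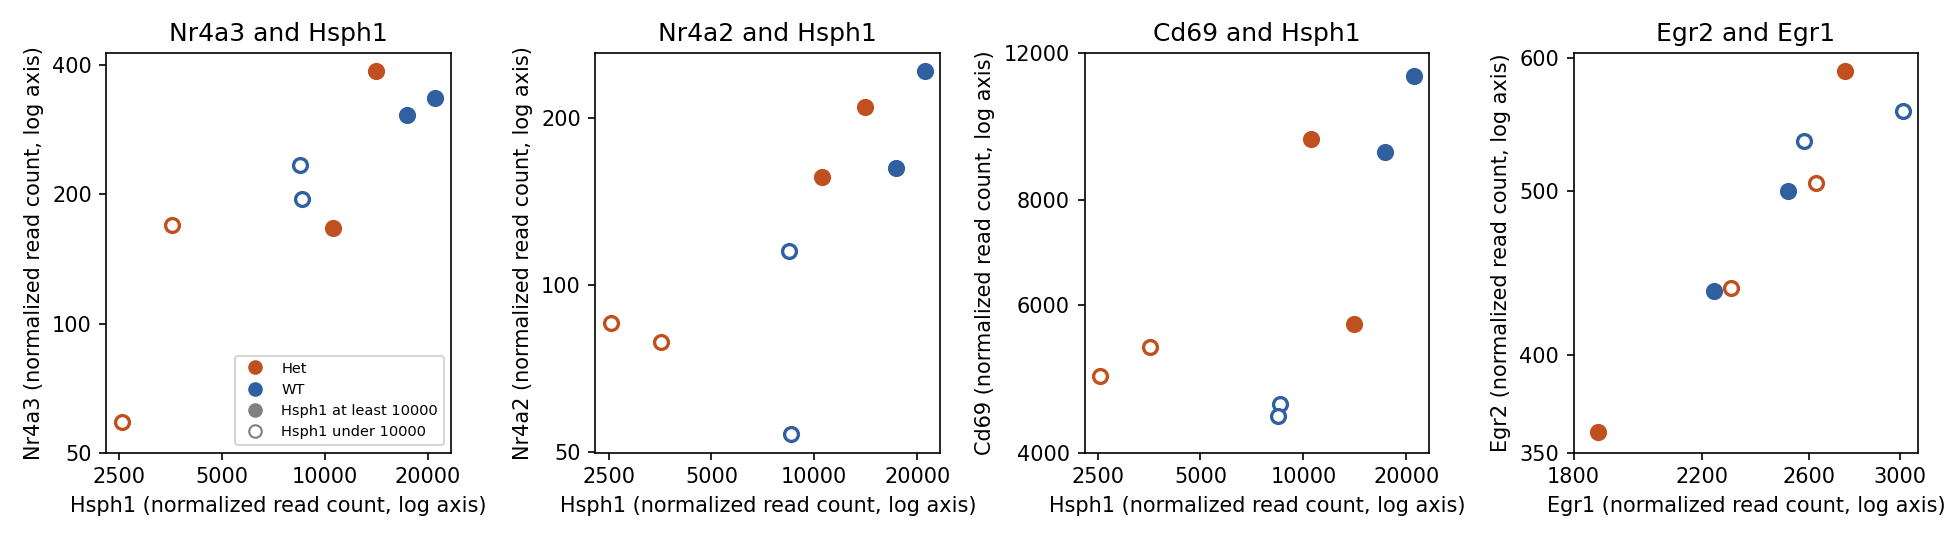
Nr4a3, Nr4a2 and Cd69 against Hsph1, and Egr2 against Egr1 (normalized read counts, all axes logarithmic); each point is 1 of 8 libraries, coloured by genotype and filled where Hsph1 was at least 10000. The points of Egr2 and Egr1 follow a narrow band (r = 0.95), and Nr4a3 is lowest in the library with the least Hsph1 (r = 0.87).

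For each gene, the 3 genes most like it over the 8 libraries were taken from 9463 named genes with a mean of at least 50, by Pearson correlation and as a description only. Cd69 was matched by other early response genes: Klf6, a zinc finger factor (r = 0.98), Nfkbiz, an atypical inhibitor of NF-kappa B (r = 0.98), and Tnfaip3, the ubiquitin editing enzyme A20 (r = 0.98). Tnfaip3 ranged from 11689 to 27476 in Het and from 9635 to 32126 in WT libraries. The nearest to Nr4a1 were Btbd11 (r = 0.96), Nfkbia, which holds NF-kappa B in the cytoplasm (r = 0.92), and the Janus kinase gene Tyk2 (r = 0.90).

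Nr4a2 was nearest to the zinc transporter Slc39a10, the histone methyltransferase Setd2 and the choline transporter Slc44a1, each with r = 0.96. Nr4a3 was nearest to Spag1 (r = 0.98), Wdr20a (r = 0.98) and Cnpy4 (r = 0.97). Egr1 was nearest to the ribonuclease H2 subunit Rnaseh2c (r = 0.96), the protease Bace1 (r = 0.95) and Zfp865 (r = 0.95), and Egr2 to Gatc, of mitochondrial transfer RNA charging (r = 0.98), the NF-kappa B subunit Rela (r = 0.97) and Leng1 (r = 0.96). Egr3 was nearest to Zfp579 (r = 0.99), Wiz (r = 0.97) and the forkhead factor Foxp4 (r = 0.97), and Myc to Mrpl21 (r = 0.96), Dym (r = 0.95) and Wbscr22 (r = 0.93). With 8 libraries and so many genes, high values of r arise readily, and no p is given.

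The genes that act with and around the 8 were read from the same fit. Among factors that carry the receptor signal to immediate early genes, such as Srf, the Mef2 factors and NFAT proteins, 0 of 17 tested genes passed in either direction (3 higher and 14 lower in Het, median log2 difference -0.13). The gene of this list with the smallest p was Mkl1, an actin-regulated partner of serum response factor, at 7654 ± 766 in Het and 9287 ± 1584 in WT (SD, n = 4 each, limma adjusted p = 0.640). Of the EGR and NR4A relatives and partners, 0 of 6 tested passed (2 higher and 4 lower, median -0.05). Nab2, a corepressor that EGR factors themselves induce, was at 2363 ± 236 in Het and 2973 ± 396 in WT (log2 difference -0.33, limma adjusted p = 0.465). Rxra, a dimer partner of Nr4a1 and Nr4a2, was at 821 ± 65.9 and 964 ± 17.8 (-0.23, limma adjusted p = 0.584). Of these 6, only Rxra was without overlap of the genotypes, against 5.0% of all tested genes.

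Other immediate early genes gave the same count, with 0 of 30 tested past the threshold (14 higher and 16 lower in Het, median log2 difference -0.01, and 3 at an unadjusted p under 0.05, against 8.19% of all tested genes). At that unadjusted level there were 2 of 6 relatives and partners and 0 of 17 upstream factors. Zfp36, which speeds decay of cytokine messages, was at 10328 ± 1213 in Het and 12299 ± 305 in WT (log2 difference -0.26, limma adjusted p = 0.517). It was the 1 gene of the 30 without overlap of the genotypes, against 5.0% of all tested genes. Atf3, a stress-induced repressor, was at 35.8 ± 11.8 in Het and 15.0 ± 13.1 in WT (log2 difference 1.47, limma adjusted p = 0.529). By Hsph1 side, 8 of the 30 (Fosb, Fosl2, Jun, Rgs1, Nfkbiz, Tnfaip3, Maff and Klf6) were higher in each of the 4 libraries with Hsph1 of at least 10000, against 7.52% of all tested genes. Jun was at 9748.8 and 10026.0 in Het 53 and 56 and at 15320.9 and 12460.8 in WT 45 and 65. On the other side it was at 7632.5 and 9165.7 in Het 31 and 139 and at 7084.2 and 8906.1 in WT 54 and 57. Fos, its partner in AP-1, overlapped between the sides, since Het 56 was at 7259.6, below Het 31 at 7301.9 and Het 139 at 7787.0.

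Later activation genes did not pass either (0 of 23 tested, 17 higher and 6 lower in Het, median log2 difference 0.08). Of these 23, 2 had an unadjusted p under 0.05, against 8.19% of all tested genes. Xcl1, a chemokine of CD8 T cells and NK cells, was at 145 ± 51.3 in Het and 77.4 ± 29.6 in WT (limma adjusted p = 0.549), and the costimulatory receptor Tnfrsf9 at 398 ± 46.0 and 301 ± 59.4 (limma adjusted p = 0.565). Among genes known to be acted on by EGR2, EGR3 or NR4A factors in T cell restraint, 0 of 13 tested passed (7 higher and 6 lower, median 0.00). Of these 13, 2 had an unadjusted p under 0.05, against the same 8.19%. The inhibitory receptor Tigit was at 47.9 ± 27.98 in Het and 13.4 ± 9.58 in WT (log2 difference 1.76, limma adjusted p = 0.416), and Entpd1, the ectonucleotidase CD39, at 126 ± 42.3 and 68.7 ± 23.9 (limma adjusted p = 0.558).

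Around Cd69, the egress receptor S1pr1 and the homing genes gave 0 of 8 (5 higher and 3 lower, median log2 difference 0.11). Foxo1, which upholds homing receptor expression, was at 12202.5 ± 860 in Het and 10958 ± 791 in WT (limma adjusted p = 0.662). Around Myc, its partners and antagonists gave 0 of 11 tested (2 higher and 9 lower, median -0.16), with the antagonist Mxd4 at 1044 ± 283 in Het and 1314 ± 174 in WT (limma adjusted p = 0.652) and Mlx at 2547 ± 244 and 2258 ± 95.9 (0.653 by limma, adjusted). Of 22 genes that Myc is known to raise, 0 passed (7 higher and 15 lower, median -0.03). Npm1, a nucleolar chaperone, was at 8131 ± 1883 in Het and 6401 ± 603 in WT (limma adjusted p = 0.652), and Bop1, of ribosome assembly, at 3140 ± 137 and 3466 ± 383 (limma adjusted p = 0.708). Heat shock genes gave 0 of 18 tested (2 higher and 16 lower, median -0.45), with Dnajb1, a chaperone partner of HSP70, at 5468 ± 1114 in Het and 7152 ± 1428 in WT (limma adjusted p = 0.601) and Hspd1, the mitochondrial HSP60, at 2089 ± 474 and 2835 ± 829 (limma adjusted p = 0.635).

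Markers of other cells that spleen preparations can hold were present, and several of these cells also express the 8 genes. The B cell marker H2-Aa, an MHC class II chain, reached 11212.9 in Het 31, with 1119.9 to 3645.8 in the other Het libraries and 1280.9 to 3286.6 in WT. B cell markers were higher in Het in 9 of 9 genes, none past the threshold, and summed to 4750.1 to 29032.2 in Het and 4214.5 to 10872.5 in WT libraries. NK cell markers were higher in 5 of 5 tested (314.6 to 1565.2 in Het, 198.6 to 629.9 in WT, with Klra4 listed at 0 throughout). CD4 and regulatory T cell markers were higher in 4 of 4 (868.7 to 1990.0 in Het, 703.5 to 1524.7 in WT), and myeloid markers in 8 of 10 (1458.2 to 4597.9 in Het, 1602.6 to 3179.7 in WT). Effector and memory markers were higher in 5 of 9 and lower in 4, with a median log2 difference of 0.36. They summed to 32062 to 39669 in Het and 32715 to 39377 in WT. Of these 9, 2 had an unadjusted limma p under 0.05, against 8.19% of all tested genes, and 0 passed after adjustment. Gzmb was at 432 ± 168 in Het and 224.5 ± 78.9 in WT, and Klrg1 at 113 ± 65.3 and 34.4 ± 22.3 (limma adjusted p = 0.528 and 0.584), both small beside the sums. Red cell and platelet markers were higher in 5 of 6 tested (337 to 989 in Het, 384.3 to 802.8 in WT, with Hbb-b1 and Hba-a1 listed at 0). Nerve, stroma and skin markers were lower in 9 of 11, and 4 of the 11 fell in Het by limma, against 0.515% of all tested genes: Dcn, S100b, Apod and Mtap1b, with Dcn at 24.8 ± 20.5 in Het and 470 ± 166 in WT (SD, n = 4 each, limma adjusted p = 0.00536). The list was chosen with earlier results of these data known, so its share called is not an independent comparison with all tested genes. All 11 genes of this list together summed to 15971 to 17071 in Het and 19209 to 22856 in WT. In Het, Dcn, S100b, Apod and Mtap1b reached at most 54.1, 15.0, 41.2 and 76.1, so most of that sum came from other genes of the list. With the B cell markers as a covariate none of the 8 genes passed, and the log2 difference was -0.29 for Nr4a3, -0.42 for Egr3, -0.063 for Egr1, -0.041 for Egr2, -0.057 for Cd69 and -0.032 for Nr4a1, with Nr4a2 (0.24) and Myc (0.033) above 0. The part of the other cells in these levels was not tested.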

How the data were processed

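Per the labels' protocols, naive CD8 T cells were isolated directly from splenocytes, total RNA was extracted on columns, and libraries were made by a stranded polyadenylated RNA protocol. The submitters' processing notes name the tools TopHat2, HTSeq, DESeq and CASAVA and the build mm9, without versions or roles. The deposited values are a linear signal for each gene, here called normalized read counts. Sorted, they were nearly equal across the 8 libraries at the ranks checked: 9513 ranks averaged 100 or more, and 100% of these stayed within 2% of the rank mean, as after quantile normalization. Neither that step nor the strand setting of the counting is stated in the labels or notes. Such scaling hides differences in total RNA, and whole reads were not recovered, so no count model was used. No columns were identical.

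Genes with a mean of at least 10 (12048) were tested on log2(value + 1) in R 4.3.3 by limma 3.58.1 (two-sided, prior variance following mean level), with Benjamini-Hochberg adjustment over all tested genes and a threshold of 0.05. Fold changes on this scale understate those of low genes. Single genes were also tested by an exact permutation test of the difference in means over 70 assignments, whose smallest p is 0.0286. The fit was tested on simulated data with independent noise for each gene, which lack the trends that genes share in these libraries. GC content and length came from the longest GENCODE M21 transcript per symbol (90.3% of tested genes), and trends were splines with 4 degrees of freedom each. The members, the 18 lists (226 genes, all found) and the alternatives were chosen with earlier results of these data known. Named genes were the members, Brca1, Hsph1, list genes past the threshold or otherwise up to 2 with the smallest p, and the 3 nearest by correlation. A gene that this rule names is not reported here. Immediate early genes listed by Hsph1 side, with Fos and Jun, were named after their values were seen. Alternatives tried were a pseudocount of 0.5 or 5, testing each gene above 0 anywhere, testing from a mean of 50, median-of-ratios scaling, no trend, a robust fit, array weights, Hsph1 (level or side) or B cell markers as a covariate, and leaving out each library. The removal of GC and length trends, and all correlations with their alternatives, were chosen after seeing the data.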

Additional observations from a re-analysis of the deposited data

Results flagged for a closer look

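Within each genotype, a library was singled out when its gap to the nearest of the others exceeded Dixon's 95% critical value for 4 samples. By chance about 1 in 20 groups would hold such a library. Among the 92 groups of named genes, 6 (6.52%) did. Of the 8 activation genes this concerned Cd69, at 9474.9 in Het 53 with the other Het libraries at 4943.2 to 5693.3. Cd3g, a chain of the receptor complex, was at 18659.4 in WT 54 (others 15715.2 to 16087.9), and the lysozyme gene Lyz2 at 1133.4 in WT 54 (others 578.2 to 664.3). Cd40lg, a helper T cell ligand, was at 157.9 in WT 65 (others 27.2 to 34.6). S100b was at 15.0 in Het 56 (others 0.9 to 3.2) and Mtap1b at 76.1 in Het 56 (others 2.4 to 7.9).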

How the results depend on the processing

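The count of activation genes called was 0 under each of the 20 alternatives. The count over all genes was 62, and was 123 with any value above 0, 14 with a mean of at least 50, 3 with log2 Hsph1 as a covariate and 41 with the B cell markers as a covariate. It was 11 to 94 when 1 library was left out: 27, 21 and 30 without Het 31, 53 and 139, 94 without Het 56, 16, 11 and 17 without WT 54, 57 and 65, and 60 without WT 45. Signs of the log2 differences turned with array weights (Nr4a1 0.057, Nr4a2 0.041, Cd69 0.13), with log2 Hsph1 as a covariate (Nr4a1 0.068, Nr4a2 0.71, Nr4a3 0.054, Cd69 0.30), with the B cell markers (Nr4a2 0.24, Myc 0.033) and with GC and length trends removed (Egr1 0.047). With 1 library left out they ranged from -0.094 to 0.13 for Nr4a1, -0.44 to 0.28 for Nr4a2, -1.13 to -0.23 for Nr4a3, -0.20 to -0.01 for Egr1, -0.23 to 0.0060 for Egr2, -0.79 to -0.44 for Egr3, -0.34 to 0.11 for Cd69 and -0.21 to 0.035 for Myc. The 2 relations past the threshold were 0 with GC and length trends removed and 0 to 3 with 1 library left out. Fewer libraries raise the smallest p, but 1 relation still passed without Het 56 or WT 57, and 3 without Het 139. The cause of these and the other changes was not tested. No paired analysis was possible because the genotypes share no library number. Shared scaling of the libraries hides differences in total RNA, which limits every level given.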
